A study of Mus musculus with 8 samples.

Results

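Overexpression of ADAR1 p150 was compared with an empty vector in EO771 cells, a mouse breast cancer line, in 4 of the 8 RNA-seq libraries of the study. The comparison was made over every gene that averaged 10 counts or more across the 8 libraries, which were 6901 of the 49997 genes in the table of counts. The question was which functions and gene families differed between the overexpressing and the vector cells, besides Adar and the interferon-stimulated genes. In this experiment, 2 libraries came from EO771 cells transduced with empty vector and 2 from EO771 cells transduced with an ADAR1 p150 overexpression vector, and the labels give no further treatment. In the other experiment, 2 libraries came from EO771 cells treated with vehicle (DMSO in saline) and 2 from cells treated with 12-HETE, a lipid product of 12-lipoxygenase. These 4 libraries entered the fit so that all groups shared an estimate of the spread. The promoter of the vector and whether the transduced cells were clones or pools are not given in the sources used here.

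ADAR1 is an enzyme that converts adenosine to inosine in double-stranded RNA, and p150 is its longer, interferon-inducible isoform, found largely in the cytoplasm. Editing by ADAR1 keeps the double-stranded RNA of the cell from being read as foreign by sensors such as MDA5, PKR and the OAS enzymes. Active PKR phosphorylates the initiation factor eIF2, as do the other kinases of the integrated stress response, which lowers general translation and raises the transcription factor ATF4 and its target genes for amino acid supply and tRNA charging.

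The total count was 1148202 and 1101767 in the vector libraries and 1407047 and 1353124 in the ADAR1 p150 libraries, so the overexpressing libraries were deeper. A single transcript, AY036118, which overlaps a sequence related to 18S rRNA, took between 44.4% and 47.4% of each of these 4 libraries, and a count of 3 corresponded to between 2.13 and 2.72 CPM (a count rescaled so that every library has the same sum), so many of the genes below rest on few counts. Of the epithelial markers, 8 of 15 passed the count minimum, with a summed count of 250 and 337 in the vector and 487 and 362 in the ADAR1 p150 libraries, against 1 of the fibroblast, 1 of the leukocyte and 0 of the endothelial markers. In bulk RNA, fewer cells that express a gene and less RNA of it per cell cannot be told apart. Whether reads were counted by strand is not stated in the sources used here. Of the 6901 genes, 4026 overlapped an annotated gene on the other strand, and for these genes the reads of either strand cannot be told apart if strand was not used. Eno3, the muscle enolase gene, for example, had 6740 and 6945 counts in the vector libraries, while Pfn1, the profilin gene on the other strand, had 100 and 81. Such partners are named beside the main genes below. If reads were counted on the wrong strand, a count would not be that of the named gene, with or without an annotated partner. Which of these holds was not tested.

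Adar itself had 2 and 8 counts in the vector and 181 and 140 counts in the ADAR1 p150 libraries. The groups did not overlap, and Adar (chr3:89714469-89753455, plus strand, GRCm38) was higher with a log2 fold change of 4.68 ± 0.32 (SE, n = 2 per group, edgeR adjusted p = 6.4e-14). The count sums endogenous transcripts and the transgene, and Chrnb2 lies on the other strand. A gene was called where edgeR's quasi-likelihood test gave a Benjamini-Hochberg adjusted p under 0.05 over all 6901 genes together with at least a 2-fold change, and all adjusted p values below come from that test. The labels do not say that the replicates were separate cultures, so these p values measure the spread between 2 libraries per group.

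Of the 6901 genes, 560 (8.11%) were called higher and 324 (4.69%) lower with ADAR1 p150, and the median log2 fold change over all of them was 0.07. These percentages are the background for the gene lists below. Every gene called higher and 321 of the 324 called lower had groups that did not overlap in counts scaled by library size. The counts were fewer in a DESeq2 fit, with 250 genes higher and 191 lower. Of the genes called higher, 265 (47.3%) were also called when any 1 of the 4 libraries was left out, and of those called lower 150 (46.3%).

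**Figure D1:**
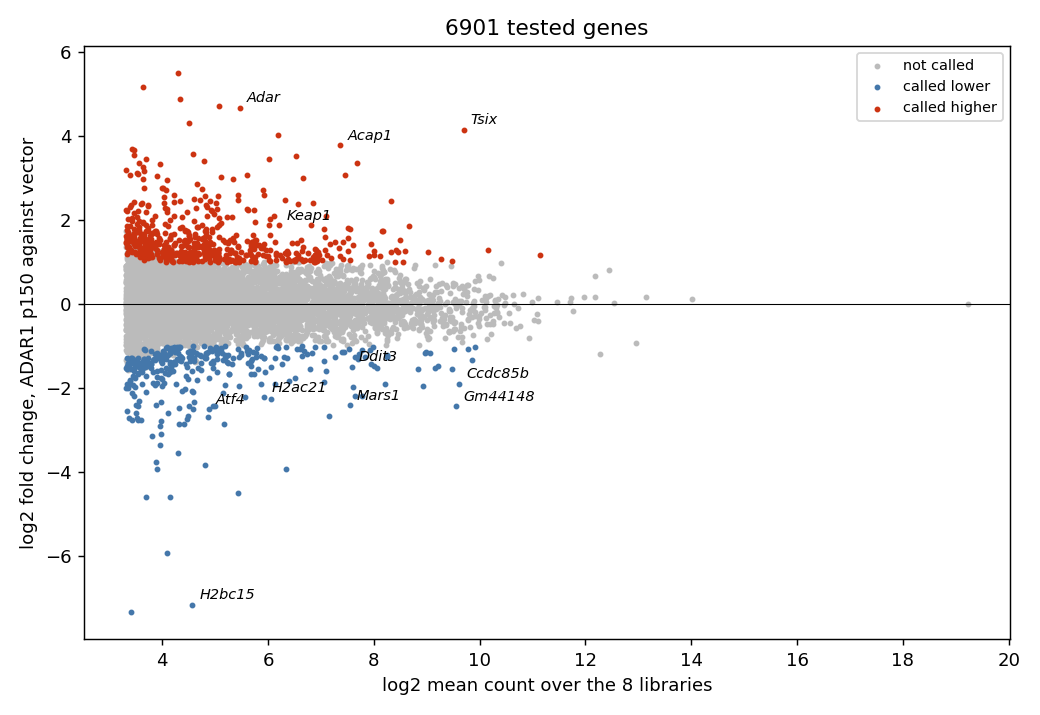
Log2 fold change between the ADAR1 p150 and vector libraries (vertical) against the log2 mean count over the 8 libraries (horizontal) for the 6901 tested genes, each a point. Red points are the 560 genes called higher and blue points the 324 called lower; Adar, Tsix and Acap1 stand high above 0, while Gm44148, Mars1, Atf4 and H2ac21 lie below -2.

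Among the lists of at least 20 tested genes outside RNA sensing and interferon, those furthest above the background on the lower side were the unfolded protein and integrated stress response (12 of 24 tested genes lower), the replication-dependent core histones (10 of 24, 41.7%) and the aminoacyl-tRNA synthetases (6 of 21, 28.6%). These lists overlap, since 4 synthetases stand in both the first and the third. Glycolysis (3 of 18 higher, 16.7%) and the extracellular matrix (5 of 29 higher, 17.2%) lay above the background on the higher side. The machinery of the secretory pathway and the regulators of chromatin had fewer called genes than the background in either direction. Counts within a list depended on single libraries: leaving out 1 library moved the number called higher by over 1.5 times in 32 of the 43 lists that had such a gene, and the number called lower in 34 of 40.

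**Figure D2:**
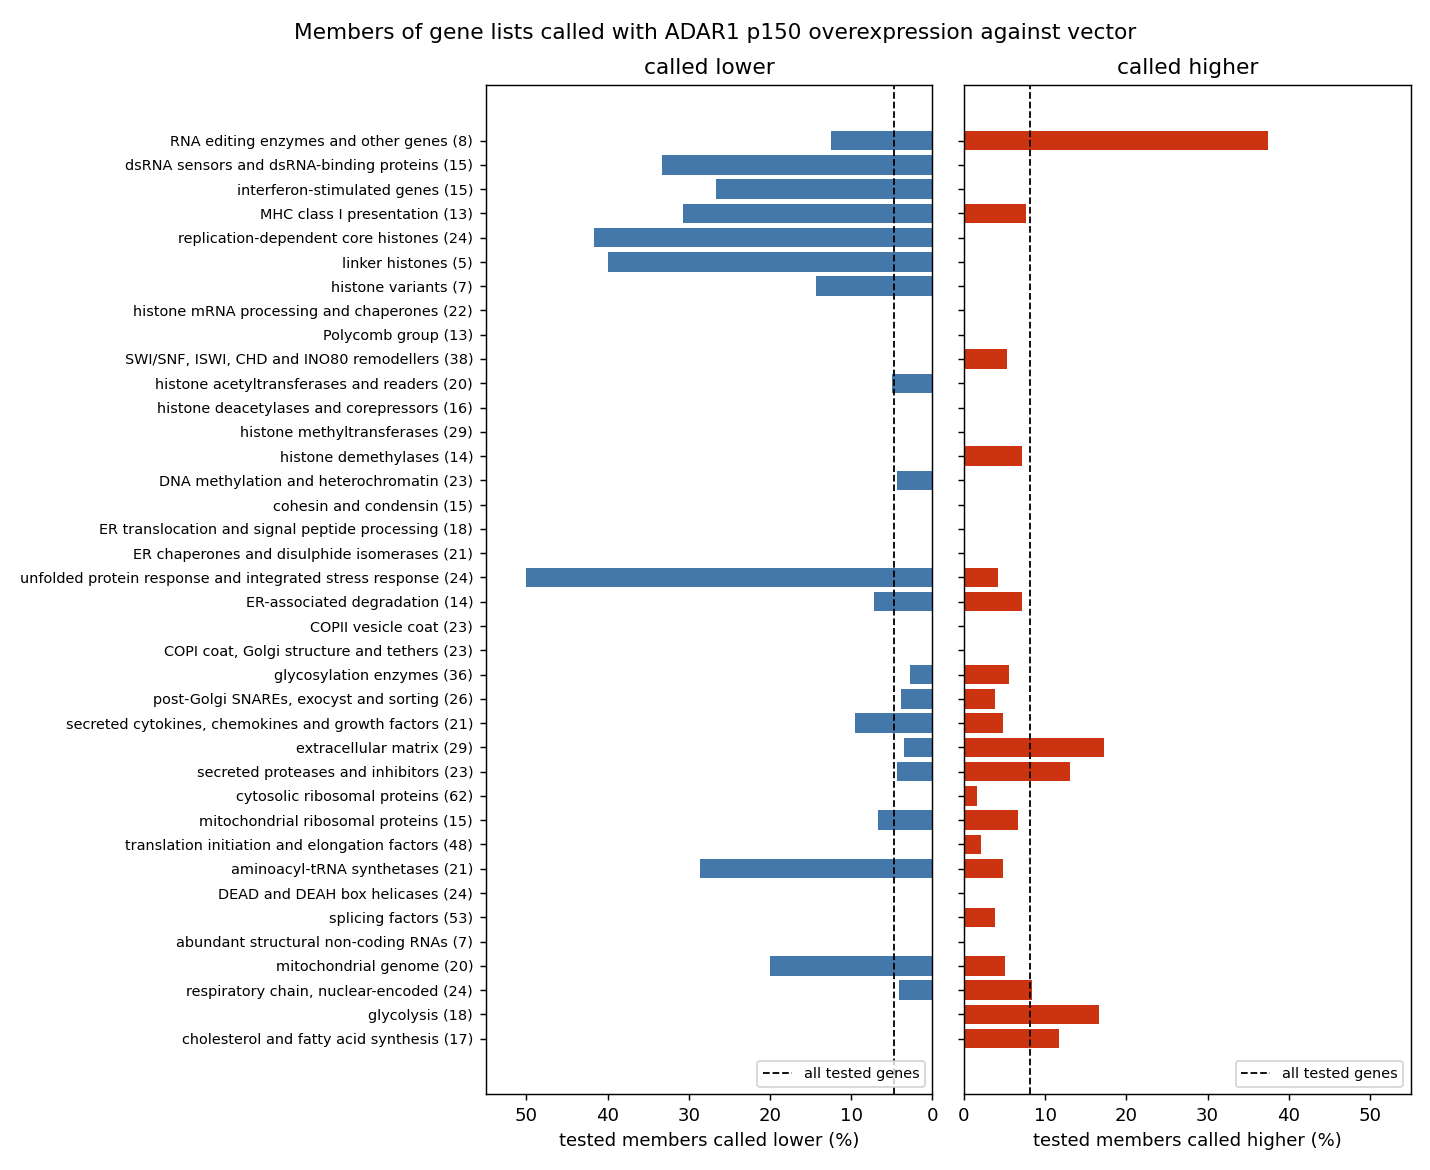
Share of the tested members of each gene list (number tested in brackets) that was called lower (left, blue) or higher (right, red) with ADAR1 p150 against vector, in percent; the dashed lines mark the 4.69% and 8.11% of all tested genes. On the left the stress response, with 12 of 24 genes lower, reaches furthest, followed by the core histones at 41.7%, and the RNA editing list at the top right holds 3 genes that are no editing enzymes.

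The transcription factors at the centre of the integrated stress response were lower in the overexpressing cells, together with some of its genes for amino acid supply and not with others. Of 24 tested genes in the unfolded protein and integrated stress response, 12 fell, 1 rose and 11 were not called, and 19 had a log2 fold change below 0. The median of the list was -1.17, against 0.07 for all genes, and between -1.23 and -0.60 for the 4 pairings of an ADAR1 p150 with a vector library. All 12 genes that fell had both ADAR1 p150 libraries below both vector libraries in counts scaled by library size, as did 321 of the 324 genes called lower.

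Atf4, the transcription factor that is translated when eIF2 is phosphorylated, had 29 and 37 counts in the vector and 9 and 5 in the ADAR1 p150 libraries (log2 fold change -2.51 ± 0.39, adjusted p = 5.5e-06). Ddit3, which encodes the ATF4 target and cell death regulator CHOP, had 239 and 232 counts in the vector and 90 and 115 in the ADAR1 p150 libraries (-1.49 ± 0.14, adjusted p = 5.3e-10). Atf5, a related transcription factor, had 368 and 313 counts in the vector and 173 and 178 in the ADAR1 p150 libraries (-1.25 ± 0.12, adjusted p = 1e-09). In each of the 3 genes both overexpressing libraries lay well below both vector libraries. Cebpb, a dimerization partner of CHOP, had 74 and 59 counts against 33 and 28 (-1.42 ± 0.23, adjusted p = 1.6e-05). Atf4 and Cebpb overlap no annotated gene on the other strand, whereas Atf5 overlaps Nup62 and Ddit3 touches both Mbd6 and Mars1 at its ends.

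The other genes that fell were measured with fewer counts, and they are named here after their values were seen where their mean count was under 20. They were the stress sensors Ern1 (15 and 26 counts against 14 and 5) and Atf6b (12 and 15 against 5 and 3), the large neutral amino acid transporter Slc7a5 (12 and 15 against 9 and 4), the serine metabolism enzyme Shmt2 (12 and 15 against 7 and 6) and the tRNA synthetases Sars, Nars, Wars and Cars. Several of these calls rested on 1 library: 6 genes were called lower without the second ADAR1 p150 library and 6 without the second vector library, against 12 with all 4. With DESeq2, 6 were called lower as well. Among the 13 members with no gene on the other strand, 6 fell and the median was -0.98.

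Vldlr, a lipoprotein receptor gene, was the only member of the list that rose, from 16 and 12 counts with vector to 65 and 48 with ADAR1 p150 (1.71 ± 0.31, adjusted p = 5.6e-05). The eIF2 kinases did not pass the test: Eif2ak1, the heme-regulated kinase, had 63 and 86 counts in the vector and 102 and 94 in the ADAR1 p150 libraries, and Eif2ak4, the amino acid sensor GCN2, had 9 and 8 against 10 and 14. Of the ATF4 targets for amino acid synthesis, Asns (8 and 19 against 7 and 12), Psat1 (12 and 14 against 12 and 4) and Phgdh (64 and 81 against 74 and 50) were not called either. Eif2ak2, the gene of PKR, and Eif2ak3, the gene of the ER kinase PERK, were below the count minimum.

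The aminoacyl-tRNA synthetases, which join amino acids to their tRNAs, were lower for some amino acids and not for others: 6 of 21 tested genes fell and 1 rose, with a median of -0.40 (-0.59 to -0.04 over the 4 library pairings, and -0.22 without the second vector library). Among the 12 with no gene on the other strand, 1 fell, 1 rose and the median was -0.18. Mars1, for methionine, had 313 and 312 counts in the vector and 65 and 79 in the ADAR1 p150 libraries (-2.41 ± 0.15, adjusted p = 5.6e-15). It lies at chr10:127296221-127311786 on the minus strand, 71 bases of it shared with Ddit3 on the plus strand, and Mbd6 on the minus strand flanks Ddit3 on the other side. Sars, for serine, had 60 and 75 counts against 46 and 24 (-1.24 ± 0.24, adjusted p = 0.00015), and Aars, for alanine, had 24 and 28 against 13 and 13 (-1.28 ± 0.36, adjusted p = 0.0068). These 3 genes each had higher counts in both vector libraries. The call for Sars was lost without the second ADAR1 p150 library (-0.89) and that for Aars without the second vector library (-1.20, adjusted p = 0.054). Nars (46 and 64 against 38 and 22), Wars (21 and 25 against 17 and 8) and Cars (9 and 11 against 5 and 1), the last chosen after its values were seen, completed the genes that fell. In all, 2 synthetases fell without the second vector library, 2 without the second ADAR1 p150 library and 3 with DESeq2.

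Not all synthetases followed. The synthetases for glycine, threonine, leucine and valine were not called: Gars had 39 and 52 counts in the vector and 52 and 31 in the ADAR1 p150 libraries, Tars had 28 and 24 against 33 and 18, Lars 13 and 14 against 13 and 15, and Vars 27 and 30 against 40 and 28. Tars2, the mitochondrial threonine enzyme, rose from 20 and 4 counts to 76 and 75 (2.35 ± 0.36, adjusted p = 4.4e-06). Tars2 ends 97 bases before Ecm1 begins on the same strand, and Ecm1 rose as well.

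The stretch before the transcription start is shown for 4 of these genes because each holds the core letters of the C/EBP-ATF response element, the type of site to which ATF4 binds with its C/EBP partners. The sequences are from RefSeq (GRCm38.p6), read toward the first listed start of each gene, and capitals mark TGATGNAA or, on the other strand, TTNCATCA.
Aars (chr8:111033702-111033841, plus strand): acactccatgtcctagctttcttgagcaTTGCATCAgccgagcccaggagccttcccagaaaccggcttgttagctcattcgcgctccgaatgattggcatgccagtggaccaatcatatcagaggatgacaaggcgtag
Tars (chr15:11399659-11399718, minus strand): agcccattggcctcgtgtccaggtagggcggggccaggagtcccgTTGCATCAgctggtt
Gars (chr6:55037941-55038000, plus strand): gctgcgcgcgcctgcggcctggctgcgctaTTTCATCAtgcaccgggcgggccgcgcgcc
Asns (chr6:7693210-7693269, minus strand): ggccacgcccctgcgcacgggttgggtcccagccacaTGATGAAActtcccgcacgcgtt
Of these 4 genes, Aars fell and the others were not called. The 4 were picked for holding the letters, so they cannot show whether the letters sort genes that fell from the rest. The 250 bases before the start held the letters in 954 of 27025 promoters (3.53%) and in 115 of the 5173 of tested genes (2.22%). They were in 3 of the 13 synthetases with a sequence and in 1 of 18 stress-response genes with one. Of the genes called lower, only 3 synthetases and 8 stress-response genes had a sequence, and 1 and 0 of these held the letters. A match is a description of the letters and not of binding.

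Among 77 tested solute carriers, 5 (6.49%) rose and 5 (6.49%) fell, near the 8.11% and 4.69% of all genes. The number of amino acid carriers among the 77 was not counted, so no share of them that fell is given. Without the first vector library 2 rose and 3 fell, without the first ADAR1 p150 library 2 rose, without the second vector library 3 rose, and with DESeq2 1 rose and 3 fell. Slc38a2, the neutral amino acid transporter SNAT2, had 101 and 123 counts in the vector and 45 and 35 in the ADAR1 p150 libraries (-1.77 ± 0.20, adjusted p = 1.1e-08), and its libraries did not overlap. Slc7a1, the cationic amino acid transporter, had 29 and 29 counts against 22 and 7, and Slc7a10, a small neutral amino acid transporter, 42 and 47 against 21 and 27. Slc7a5, given above, fell as well. The call for Slc7a1 was lost without the second ADAR1 p150 library (-0.74) and that for Slc7a10 without the first (-0.96). Slc3a1, a subunit of an amino acid transporter, rose, and Slc10a1, a bile acid transporter, rose from 22 and 14 counts to 67 and 78 (1.71 ± 0.28, adjusted p = 1.3e-05). The grouping by amino acids was made after the values were seen.

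**Figure D3:**
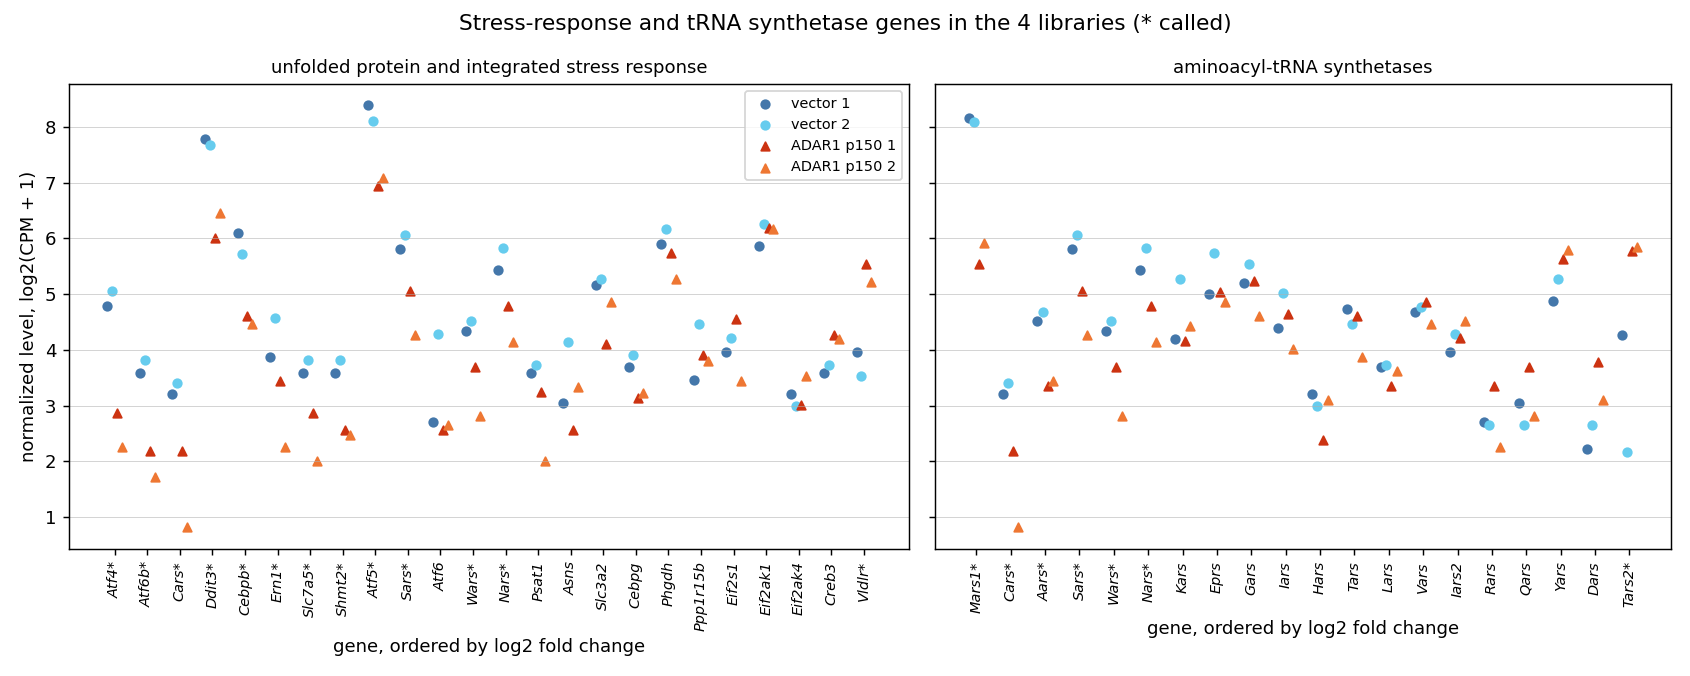
Normalized level, as log2(CPM + 1), of the 24 stress-response genes (left) and 20 of the tRNA synthetases (right) in the 2 vector libraries (blue circles) and the 2 ADAR1 p150 libraries (red and orange triangles), ordered by log2 fold change; an asterisk marks a called gene. The triangles lie below the circles for Atf4, Ddit3, Atf5 and Mars1 and above them for Vldlr and Tars2.

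Histone genes were lower with ADAR1 p150 as a group, but most of the core histone calls rested on single libraries. Replication-dependent histones are transcribed in S phase from clustered, near-identical genes, so counting can split reads among the copies. Their mRNAs end in a stem-loop in place of a poly(A) tail, so selection of polyadenylated RNA would leave few of them. The paper describes total RNA sequencing for the other experiment and names no poly(A) selection for either. The rRNA-related transcript named above also took a large share of each library. The labels and the methods name different library kits, and whether such selection contributed to low histone counts was not tested. Of 24 tested core histones, 10 fell and 0 rose, with a median of -1.34 and a summed count of 691 and 334 in the vector and 258 and 178 in the ADAR1 p150 libraries. The median lay between -1.44 and -0.53 over the 4 library pairings and was -0.56 without the first vector library. Over all 36 histone genes, with linker histones and variants, 13 (36.1%) fell and 0 rose, against 4.69% of all genes that fell.

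The spread between the vector libraries was wide. H2bc15 had 143 and 4 counts in the vector and 0 and 1 in the ADAR1 p150 libraries, H3c11 had 4 and 87 against 2 and 5, H2bc9 had 105 and 1 against 6 and 3, and H4c2 had 88 and 4 against 8 and 7. These 4 of the 10 genes that were called had vector libraries that differed by over 5-fold, and in H3c11, H2bc9 and H4c2 the groups overlapped. Those were all 3 of the 324 lower calls of the table whose groups overlapped. Only 3 core histones were called lower without the first vector library, 6 without the second ADAR1 p150 library and 1 with DESeq2. Without the first vector library the estimate for H2bc9 turned to 1.80 (adjusted p = 0.53). These genes, apart from H2bc15 and H2bc9, were named after their values were seen.

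H2ac21, a histone H2A gene, was the core histone with even vector counts: 58 and 65 in the vector and 11 and 21 in the ADAR1 p150 libraries (-2.22 ± 0.28, adjusted p = 1.2e-07). It was also the only one called whichever library was left out and the one called with DESeq2. H3c15, an H3 gene, had 21 and 6 counts against 4 and 4 (-2.01 ± 0.67, adjusted p = 0.024), and H2ac18, a second H2A gene, 33 and 10 against 8 and 10 (-1.54 ± 0.48, adjusted p = 0.015). In both, the first vector library stood above the second. The most abundant core histone that was not called, H3c14, had 23 and 5 counts against 9 and 26.

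Linker histones, which bind DNA between nucleosomes, had more even counts. H1f0, the replication-independent linker histone whose mRNA is polyadenylated, had 66 and 54 counts in the vector and 36 and 25 in the ADAR1 p150 libraries (-1.27 ± 0.24, adjusted p = 0.00011). H1f10, another replication-independent member, had 44 and 34 against 17 and 25 (-1.18 ± 0.30, adjusted p = 0.0027). H1f2 had 116 and 141 against 98 and 74, a log2 fold change of -0.87 ± 0.17 that passed the adjusted p (0.0002) but not 2-fold, and H1f4 had 66 and 58 against 64 and 34 (-0.64 ± 0.24). The call for H1f10 was lost without the first vector (-0.95) or the first ADAR1 p150 library (-0.88). All 5 tested linker histones had estimates below 0. Their groups did not overlap in scaled counts, which is a weak criterion with 2 libraries per group. The share of all tested genes for which this held is not given here. Of 7 tested variants, H2ax, the variant phosphorylated at DNA breaks, was called lower with 20 and 13 counts against 8 and 7 (-1.42 ± 0.44, adjusted p = 0.015). The other 6 were not, among them H3f3b (44 and 73 against 48 and 32) and Macroh2a2 (22 and 16 against 34 and 26).

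The promoters of 4 core histones of the cluster on chromosome 3 are shown because H2ac21 and H2ac20 face each other there and gave different counts. Capitals mark the CCAAT box (CCAAT or ATTGG) and the TATA box (TATAAA or TTTATA), both known elements of histone promoters, in RefSeq sequence of GRCm38.p6 that ends at the base before the start.
H2ac21 (chr3:96219685-96219884, plus strand): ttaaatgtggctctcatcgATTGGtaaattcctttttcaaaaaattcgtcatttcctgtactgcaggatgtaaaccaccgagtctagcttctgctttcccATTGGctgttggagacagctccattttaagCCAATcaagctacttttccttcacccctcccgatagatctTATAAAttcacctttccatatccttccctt
H2ac20 (chr3:96220881-96221080, minus strand): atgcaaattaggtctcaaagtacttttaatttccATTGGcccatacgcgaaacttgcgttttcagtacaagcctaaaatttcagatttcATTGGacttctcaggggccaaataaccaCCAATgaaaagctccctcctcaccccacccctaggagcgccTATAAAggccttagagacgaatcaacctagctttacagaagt
H2ac18 (chr3:96245397-96245496, plus strand): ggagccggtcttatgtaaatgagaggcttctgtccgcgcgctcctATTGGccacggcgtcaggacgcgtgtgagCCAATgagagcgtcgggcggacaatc
H3c13 (chr3:96268554-96268653, plus strand): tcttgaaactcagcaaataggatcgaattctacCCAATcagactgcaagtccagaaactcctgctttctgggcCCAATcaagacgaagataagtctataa
H2ac21 and H2ac20 each held 3 CCAAT boxes and 1 TATA box in the stretch shown, yet H2ac20 had 13 and 6 counts in the vector and 10 and 10 in the ADAR1 p150 libraries and was not called. H3c13 had 20 and 11 counts against 9 and 5 (-1.43 ± 0.46, adjusted p = 0.019). Over the 250 bases before the start, the CCAAT box was in 16 of 23 core histone promoters (69.6%), in 34.5% of all promoters and in 32.9% of those of tested genes. The letters of the TATA box were in 11 of 23 (47.8%), in 12.97% of all and in 7.44% of those of tested genes. Letters were counted at any distance within the 250 bases and on either strand, so a match need not be a working box. The TATA letters began at -30 from the start in H2ac21 but at -190 in H2bc15 and -147 in H3c11. Among the core histones that fell, 7 of 10 held the CCAAT letters and 4 of 10 the TATA letters.

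**Figure D4:**
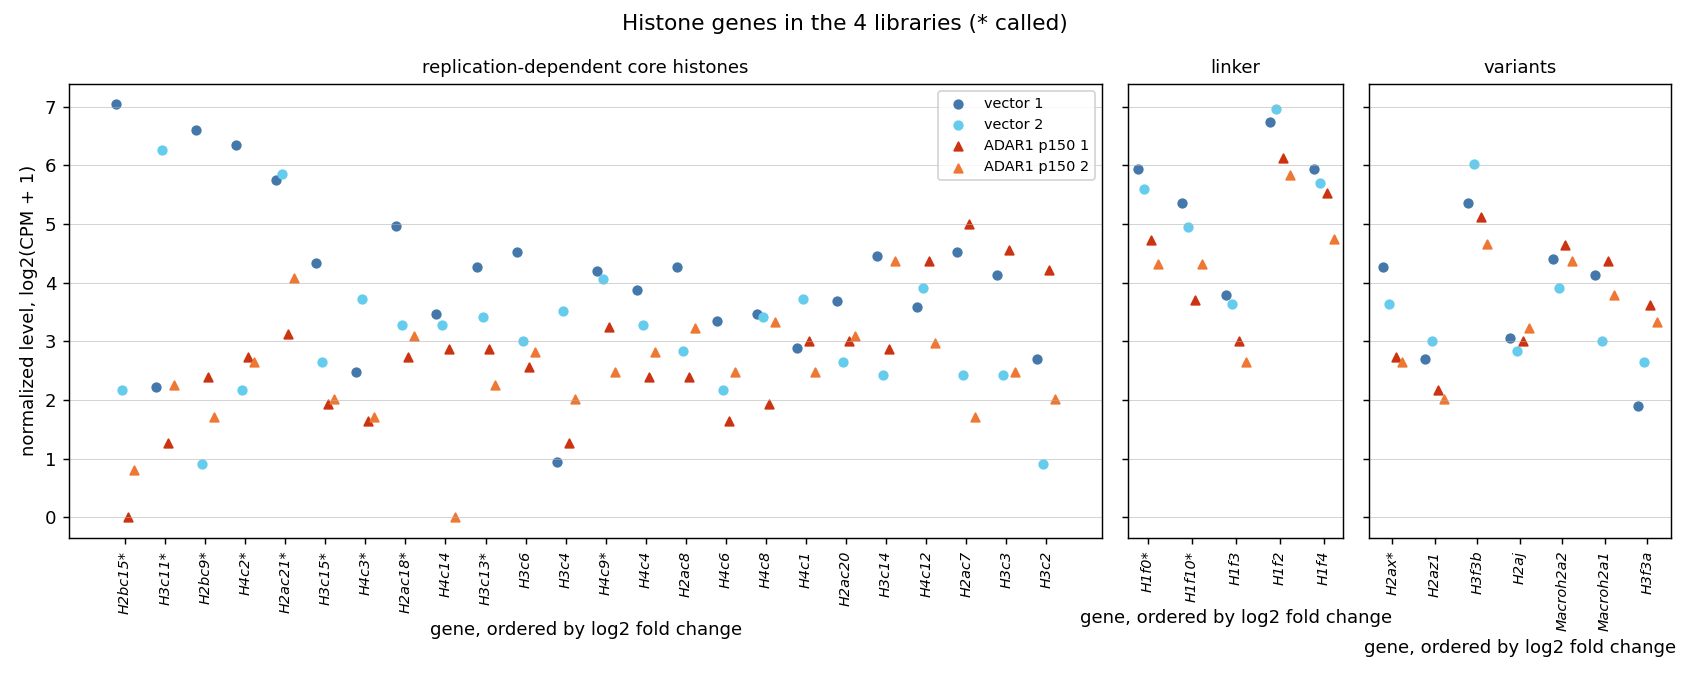
Normalized level, as log2(CPM + 1), of 24 core histones, 5 linker histones and 7 histone variants in the 2 vector libraries (blue circles) and the 2 ADAR1 p150 libraries (red and orange triangles), ordered by log2 fold change within each panel; an asterisk marks a called gene. The vector circles lie far apart for H2bc15, H3c11, H2bc9 and H4c2 and close together for H2ac21 and H1f0.

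Few genes for proteins that process histone mRNA or act on chromatin were called. Over 9 lists with 190 tested genes, 3 (1.58%) were called higher and 2 (1.05%) lower, against 8.11% and 4.69% of all genes, and the median was -0.01. No gene was called in either direction among 22 histone mRNA processing factors and chaperones, 13 Polycomb genes, 16 deacetylases and corepressors, 29 histone methyltransferases or 15 cohesin and condensin genes. Ruvbl2, an ATPase of the INO80 and SRCAP remodellers, had 287 and 286 counts in the vector and 751 and 661 in the ADAR1 p150 libraries (1.01 ± 0.10, adjusted p = 2e-09), and Gys1 overlaps it on the other strand. Its estimate is at the 2-fold limit, and the call was lost with DESeq2 (0.95) and without the second vector (0.97) or the first ADAR1 p150 library (0.97). Ino80b (7 and 15 against 35 and 24) and the H3K4 demethylase Kdm5c (6 and 8 against 28 and 14) rose, and the acetyltransferase scaffold Jade1 (14 and 20 against 8 and 9) fell, all 3 with low counts and chosen after their values were seen. Mbd6, a methyl-CpG-binding domain protein of a deubiquitinase complex, had 345 and 335 counts against 90 and 93 (-2.18 ± 0.13, adjusted p = 5.6e-15) and is the flank of Ddit3 named above. Kat5, Brd2 and Kdm1b, abundant members of their lists, were not called, with log2 fold changes of 0.02, -0.51 and 0.28.

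The machinery of the secretory pathway was nearly level. Over 7 lists from entry into the endoplasmic reticulum to the post-Golgi compartments, 161 genes were tested, of which 4 (2.48%) were called higher and 3 (1.86%) lower, with a median of 0.04. No gene was called among 18 genes of translocation and signal peptide processing, 21 ER chaperones and disulphide isomerases, 23 COPII genes or 23 genes of the COPI coat and Golgi tethers. Hspa5, the ER chaperone BiP and a main target of the unfolded protein response, had 63 and 94 counts in the vector and 94 and 88 in the ADAR1 p150 libraries (-0.08 ± 0.18, adjusted p = 0.81). Its groups overlapped, in contrast to Atf4 and Ddit3. Igf2r, the receptor that sorts lysosomal enzymes, had 80 and 81 counts against 222 and 182 (1.03 ± 0.15, adjusted p = 2.4e-06), with the non-coding Airn on its other strand, and its call was lost with DESeq2 (0.97) and without the first ADAR1 p150 library (0.94). Edem1 of ER-associated degradation and the glycosylation enzymes Dpagt1 and St3gal1 also rose, while Aup1, Pomt2 and Snx5 fell, most of them chosen after their values were seen and none called with DESeq2. Vps26b, a retromer subunit, had 412 and 414 counts against 542 and 537 (0.09 ± 0.10), and Vps29, its partner, 333 and 297 against 233 and 259 (-0.65 ± 0.12, adjusted p = 0.00011, under 2-fold).

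Genes in the lists for the cargo of the pathway were called higher at a share somewhat above the background in the edgeR fit. This difference in shares was not tested. Of 73 tested genes in these lists, 9 (12.3%) rose and 4 (5.48%) fell, with a median of 0.22, against 8.11%, 4.69% and 0.07 over all genes. Some called members are not secreted, such as the ER enzyme P4ha1, the membrane-anchored Adam15 and the intracellular inhibitor Serpinb9. The shares were not counted without them. With DESeq2, 3 genes were called higher in the matrix list, 0 in the list of proteases and inhibitors and 0 in that of cytokines and growth factors. In the extracellular matrix list, 5 of 29 genes rose and 1 fell, with a median of 0.42 (0.25 to 0.59 over the 4 library pairings). P4ha1, a collagen prolyl hydroxylase, had 15 and 28 counts in the vector and 79 and 58 in the ADAR1 p150 libraries (1.37 ± 0.27, adjusted p = 0.00016). Ecm1, a secreted matrix glycoprotein, had 24 and 25 counts against 66 and 84 (1.32 ± 0.25, adjusted p = 0.00011). In both genes the overexpressing libraries lay above the vector libraries. The proteoglycan genes Vcan (7 and 3 against 20 and 28) and Gpc1 (6 and 6 against 18 and 17) and the matrilin Matn2 (5 and 7 against 31 and 40) rose with low counts, these 3 chosen after their values were seen. Fn1, fibronectin, had 278 and 332 counts against 640 and 458, a log2 fold change of 0.55 ± 0.12 that passed the adjusted p (0.00086) but not 2-fold. The number of matrix genes called higher was 3 with DESeq2 and lay between 4 and 7 when 1 library was left out, and the number called lower was 0 in each of these fits.

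Of 23 tested genes in the list of secreted proteases and inhibitors, 3 rose and 1 fell. Adam15, a membrane-anchored metalloprotease, had 12 and 11 counts in the vector and 26 and 36 in the ADAR1 p150 libraries (1.13 ± 0.37, adjusted p = 0.022). Adam10 and the protease inhibitor Timp3 rose with similar low counts, and Serpinb9, an inhibitor of granzyme B, fell from 17 and 23 counts to 5 and 2 (-2.76 ± 0.53, adjusted p = 0.00015), the last 3 chosen after their values were seen. None of the 3 that rose was called in every fit that left out a library, while Serpinb9 was. Of 21 tested cytokines, chemokines and growth factors, 1 rose and 2 fell. Cxcl16, a chemokine for T cells, had 36 and 48 counts against 24 and 18 (-1.29 ± 0.30, adjusted p = 0.0012). Gdf15, a stress-induced cytokine and target of ATF4 and CHOP, had 18 and 25 against 10 and 11 (-1.31 ± 0.39, adjusted p = 0.01), and Fgf1 rose from 10 and 15 to 35 and 46, the last pair chosen after their values were seen. Pdgfa, the most abundant of the list, had 119 and 145 counts against 200 and 178 (0.23 ± 0.14) and was not called.

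The translation and RNA-processing machinery was close to level, apart from the synthetases. Over ribosomal proteins, mitochondrial ribosomal proteins and translation factors, 3 of 125 tested genes (2.40%) rose and 1 (0.80%) fell. Of 62 cytosolic ribosomal protein genes, Rpl10 was the one called (14 and 15 counts against 39 and 33, 1.01 ± 0.37, adjusted p = 0.041), and that call was lost in all 4 fits that left out a library. Eif2s3x, the X-linked gamma subunit of eIF2, rose from 21 and 34 counts to 95 and 62 (1.21 ± 0.26, adjusted p = 0.00047), whereas Eef2, the elongation factor, had 172 and 242 against 265 and 177 (-0.20 ± 0.15). The call for Eif2s3x was lost without the first vector or the first ADAR1 p150 library, with estimates of 0.94 and 0.93. Of 53 splicing factors, Prpf4 and Rbm10 rose and 0 fell, both calls lost without the first vector library (0.90 and 0.69), and none of 24 DEAD and DEAH box helicases was called at all.

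Transcripts of the mitochondrial genome were lower in part. Of 20 tested, 4 fell and 1 rose, with a median of -0.55, and 17 were below 0. Without the second ADAR1 p150 library, 7 fell. mt-Rnr2, the large ribosomal RNA, had 107 and 249 counts in the vector and 32 and 36 in the ADAR1 p150 libraries (-2.67 ± 0.38, adjusted p = 1.3e-06). The second vector library was the highest, and both groups were apart. TrnP, the proline tRNA, had 252 and 208 counts against 68 and 76 (-1.97 ± 0.16, adjusted p = 3.8e-12), and ND1, a complex I subunit, 285 and 277 against 113 and 126 (-1.52 ± 0.17, adjusted p = 1.9e-08). ND5, the most abundant, had 2862 and 2862 against 3613 and 4163 (0.15 ± 0.14) and was not called, so the genome did not move as a unit. TrnQ, the glutamine tRNA, rose from 13 and 6 counts to 62 and 55 (2.31 ± 0.34, adjusted p = 2.4e-06). The mitochondrial genome is transcribed from both strands, so most of these genes face transcripts of the other strand. Of 24 nuclear-encoded respiratory chain subunits, 2 rose and 1 fell, with a median of 0.00. Ndufs1, of complex I, had 10 and 13 counts against 34 and 43 (1.45 ± 0.34, adjusted p = 0.0016).

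Glycolytic genes had higher estimates, most of them under 2-fold. Of 18 tested, 3 rose and 0 fell, 16 were above 0, and the median was 0.60 (0.30 to 0.98 over the 4 library pairings). Pfkl, the liver phosphofructokinase, had 15 and 19 counts in the vector and 68 and 30 in the ADAR1 p150 libraries (1.22 ± 0.33, adjusted p = 0.0058), and Gpi1, glucose-6-phosphate isomerase, 14 and 21 against 50 and 44 (1.13 ± 0.29, adjusted p = 0.0036). The call for Pfkl was lost without the first ADAR1 p150 library (0.58) and that for Gpi1 without the first vector library (0.90). Slc2a1, the glucose transporter GLUT1, chosen after its values were seen, rose from 6 and 6 counts to 30 and 14. Pkm, pyruvate kinase, had 233 and 273 counts against 722 and 466 (0.93 ± 0.13, adjusted p = 1.4e-06) and stayed just under the 2-fold limit. The number called was 0 with DESeq2, 1 without the first vector library, 1 without the first ADAR1 p150 library, and 5 without either second library. In lipid synthesis, the desaturases Scd2 (24 and 33 counts against 106 and 63, 1.27 ± 0.25, adjusted p = 0.0002) and Scd1 were the 2 of 17 tested genes that rose, Scd1 chosen after its values were seen, and the call for Scd2 was lost without the first ADAR1 p150 library (0.90).

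Among 100 tested genes of the cell cycle and DNA repair, 4 rose and 1 fell. Fancc, of the Fanconi anemia core complex, had 122 and 144 counts in the vector and 447 and 422 in the ADAR1 p150 libraries (1.42 ± 0.13, adjusted p = 1.1e-10), and Aopep lies on its other strand. Of 33 genes of G1/S and DNA replication, 0 fell and 1 (3.03%) rose, against 4.69% and 8.11% of all genes. The gene that rose was Rfc2, chosen after its values were seen. The share of cells in S phase was not tested. Fen1, a replication nuclease, had 426 and 483 counts against 491 and 538 (-0.11 ± 0.12). Aurka and Kif20a, of mitosis, were not called either, at -0.29 ± 0.16 and -0.22 ± 0.13.

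Of 15 tested AP-1, Egr and other immediate early genes, 2 fell and 0 rose, with a median of -0.42. Klf6 had 51 and 60 counts in the vector and 26 and 23 in the ADAR1 p150 libraries (-1.47 ± 0.26, adjusted p = 5.3e-05), and Myc, chosen after its values were seen, 21 and 24 against 8 and 13. Ccdc85b, which also stood in this list and is left out of these counts because it belongs to none of those families, had 1144 and 1142 counts against 378 and 374 (-1.90 ± 0.10, adjusted p = 1.1e-16). It encodes a coiled-coil protein and overlaps the AP-1 gene Fosl1 on the other strand, which itself had 29 and 31 counts against 29 and 39. Among 29 Mediator and TFIID genes, Taf9b (15 and 10 counts against 44 and 61), Med14 (21 and 19 against 61 and 60) and Med20 rose, and Taf4 (43 and 29 against 24 and 19), Med13l and Polr2j fell. None of these falls was called without the first vector library, without the second ADAR1 p150 library or with DESeq2, and 1 was called without the second vector library. Of 69 Zfp zinc finger genes, 4 rose and 0 fell, led by Zfp185 with 2 and 6 counts against 60 and 59 (3.57 ± 0.42, adjusted p = 4.4e-08), with 2 called without the second vector library and 1 with DESeq2. Med20, Med13l and Polr2j were chosen after their values were seen.

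In protein turnover, Sqstm1, the autophagy receptor p62, fell from 121 and 123 counts to 66 and 61 (-1.23 ± 0.18, adjusted p = 2.1e-06). Keap1, the adaptor that marks NRF2 for degradation and binds p62, rose from 45 and 33 counts to 169 and 182 (1.87 ± 0.21, adjusted p = 8e-09). Keap1 was in none of the lists and was chosen after its values were seen, as was Nol3, an inhibitor of apoptosis, with 42 and 39 counts against 268 and 248 (2.37 ± 0.17, adjusted p = 4.5e-13). None of 16 proteasome genes was called. Of 22 tripartite motif genes, 2 rose and 3 fell, among them the neighbours Trim17 (18 and 17 counts against 61 and 70) and Trim11 (48 and 74 against 185 and 162). In the cytoskeleton, Tuba1c, an alpha-tubulin, rose from 39 and 29 counts to 144 and 86 (1.46 ± 0.26, adjusted p = 5e-05), and of 53 actin cytoskeleton genes 1 rose and 1 fell. Flna, filamin A, had 111 and 142 counts against 347 and 246 and stayed under 2-fold (0.93 ± 0.15, adjusted p = 8.3e-06).

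Of 5 tested RNA and DNA editing enzymes, 2 rose and 1 fell. Besides Adar, Apobec3, a cytidine deaminase that restricts retroviruses, rose from 5 and 5 counts to 23 and 19 (1.75 ± 0.46, adjusted p = 0.0045), a call lost with DESeq2 (adjusted p = 0.12). The list also held 3 tested genes that are no editing enzymes. Of these, Adal and Aimp2 were not called, and Ampd3, the AMP deaminase of red cells, rose from 25 and 17 to 56 and 65 (1.23 ± 0.28, adjusted p = 0.0009), a call lost with DESeq2 (adjusted p = 0.051) and without the second vector library (0.95). The tRNA deaminase genes Adat1 (37 and 39 against 45 and 47) and Adat2 (28 and 18 against 26 and 37) were not called. Of 15 tested sensors and binders of double-stranded RNA, 5 fell and 0 rose, and 3 fell without the first vector library or with DESeq2. Oas3, an OAS enzyme, had 26 and 37 counts in the vector and 1 and 0 in the ADAR1 p150 libraries (adjusted p = 1.7e-08), Oasl2 33 and 27 against 2 and 4 (adjusted p = 3.7e-07), and Oasl1 28 and 36 against 9 and 9 (-2.11 ± 0.37, adjusted p = 3.5e-05). Trim25 fell by less, and the processing enzymes Dicer1, Drosha and Dhx9 were not called. In the interferon list, 4 of 15 fell and 0 rose, and in MHC class I presentation 4 of 13 fell and 1 rose, among them H2-D1 (87 and 116 against 68 and 50, -1.07 ± 0.19, adjusted p = 3.7e-05) and Erap1, the peptide-trimming enzyme, which rose from 39 and 50 to 132 and 121 with Cast on its other strand. In the MHC list, 2 genes fell without the second vector library and 2 without the second ADAR1 p150 library, and the call for H2-D1 was lost in both fits (-0.89 and -0.92).

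By kind of gene, the calls were not even. Of 4907 tested protein-coding genes, 5.91% were called higher and 4.38% lower. Of 1601 long non-coding RNA genes, 12.7% were higher and 5.93% lower, and of 292 pseudogenes 19.2% were higher and 3.08% lower. Genes with a partner on the other strand were called at 8.10% higher and 4.25% lower, and genes without one at 7.15% and 5.54%. Predicted genes with Gm names had a median of 0.20, with 221 of 1574 higher and 75 lower.

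The largest changes were often in genes without an established function. Among genes that averaged 50 counts or more, the largest rises were in Tsix (80 and 85 counts in the vector and 1811 and 1779 in the ADAR1 p150 libraries, 4.15 ± 0.12, adjusted p = 5.3e-24), Ush1g (7 and 13 against 182 and 221), Acap1 (24 and 43 against 561 and 572), Gm52209, Gm29539, LOC667541, Gm39008, Gm52421, Ankrd29 and Gm9968, which rose by at least 2.59 on the log2 scale. Tsix is the antisense partner of Xist, the RNA that silences an X chromosome, which had 0 and 1 counts against 42 and 26. The largest falls were in LOC115490439 (125 and 180 counts against 12 and 12, -3.94 ± 0.25, adjusted p = 8e-15), mt-Rnr2, Gm44148 (1318 and 1294 against 281 and 311, -2.43 ± 0.11, adjusted p = 1e-18), Mars1, 1700034H15Rik, H2ac21, D930030F02Rik, Mbd6, TrnP and 9930014A18Rik. Several of these genes moved the same way with 12-HETE, where Tsix had 102 and 90 counts in the vehicle and 1292 and 1398 in the treated libraries (3.62 ± 0.12) and Gm44148 had 1306 and 1191 against 179 and 157 (-3.08 ± 0.11). Gm44148 lies opposite Usp18, an interferon-induced protease gene, which had 20 and 21 counts against 48 and 44.

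Some genes that rose lay beside each other on the same strand. Acap1 (chr11:69881566-69895568) and 2810408A11Rik (chr11:69897352-69901039), both on the minus strand and 1783 bases apart, both rose, the second from 2 and 5 counts to 119 and 115. Ecm1 and Tars2 are 97 bases apart, and Trim17 and Trim11 650 bases apart. Of 91 genes called higher that had a tested gene within 10 kb on the same strand, 34 (37.4%) had one that was called higher, against 99 of 1321 (7.49%) over all tested genes with such a neighbour. For genes called lower the shares were 10 of 54 (18.5%) and 57 of 1321 (4.31%), Mbd6 and Mars1 among them. Both genes of a pair were counted, so the genes are not independent of each other. The shares over all tested genes include the called genes, and genes that overlap on the same strand were kept.

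The effect of ADAR1 p150 was set against that of 12-HETE by a test of the difference between both effects, which share no control libraries. The difference passed an adjusted p of 0.05 and 2-fold for 575 of the 6901 genes (8.33%), with the ADAR1 p150 effect above that of 12-HETE in 424 and below it in 151. In the stress-response list the difference was called for 4 of 24 genes. Atf5 had a log2 fold change of -1.25 ± 0.12 with ADAR1 p150 and 0.28 ± 0.12 with 12-HETE (difference -1.53 ± 0.17, adjusted p = 7.4e-08), Ddit3 -1.49 ± 0.14 and -0.32 ± 0.13 (difference -1.17 ± 0.20, adjusted p = 6.2e-05), and Atf4 -2.51 ± 0.39 and -0.89 ± 0.28 (difference -1.62 ± 0.50, adjusted p = 0.022). Vldlr went the other way, with 1.71 ± 0.31 and -0.77 ± 0.33. Mars1, next to Ddit3, fell in both, by -2.41 ± 0.15 and -2.35 ± 0.15, with a difference of -0.05 ± 0.22, and so did Mbd6, with a difference of 0.14 ± 0.20. Over the whole list the medians were -1.17 with ADAR1 p150 and -0.62 with 12-HETE.

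For the core histones the medians were -1.34 with ADAR1 p150 and 0.27 with 12-HETE. With ADAR1 p150, 10 were called lower and 0 higher. The difference was called for 7 of 24, each time lower with ADAR1 p150, against 8.33% of all genes in either direction. Without the first vector library the ADAR1 p150 median was -0.56, with 3 genes called lower and 1 higher. H2ac21 had 73 and 61 counts in the vehicle and 107 and 92 in the 12-HETE libraries, and its difference was -2.60 ± 0.34 (adjusted p = 1.6e-06). For H2ac18 (12 and 7 counts with vehicle, 41 and 23 with 12-HETE) the difference was -3.08 ± 0.65 (adjusted p = 0.00091), and for H3c15 (31 and 12 against 66 and 28) -2.94 ± 0.77 (adjusted p = 0.0074). Adar did not differ between the vehicle and 12-HETE libraries beyond the test (5 and 5 counts against 7 and 6). Acap1 and Ruvbl2 rose with ADAR1 p150 and not with 12-HETE (differences 4.68 ± 0.33, adjusted p = 4.9e-12, and 1.16 ± 0.15, adjusted p = 1.6e-06). In the extracellular matrix list, the difference was called for 4 of 29 genes, all higher with ADAR1 p150, and the median with 12-HETE was -0.05. In the glycolysis list the difference was called for 3 of 18 genes, 2 higher and 1 lower with ADAR1 p150, and the median with 12-HETE was 0.35.

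**Figure D5:**
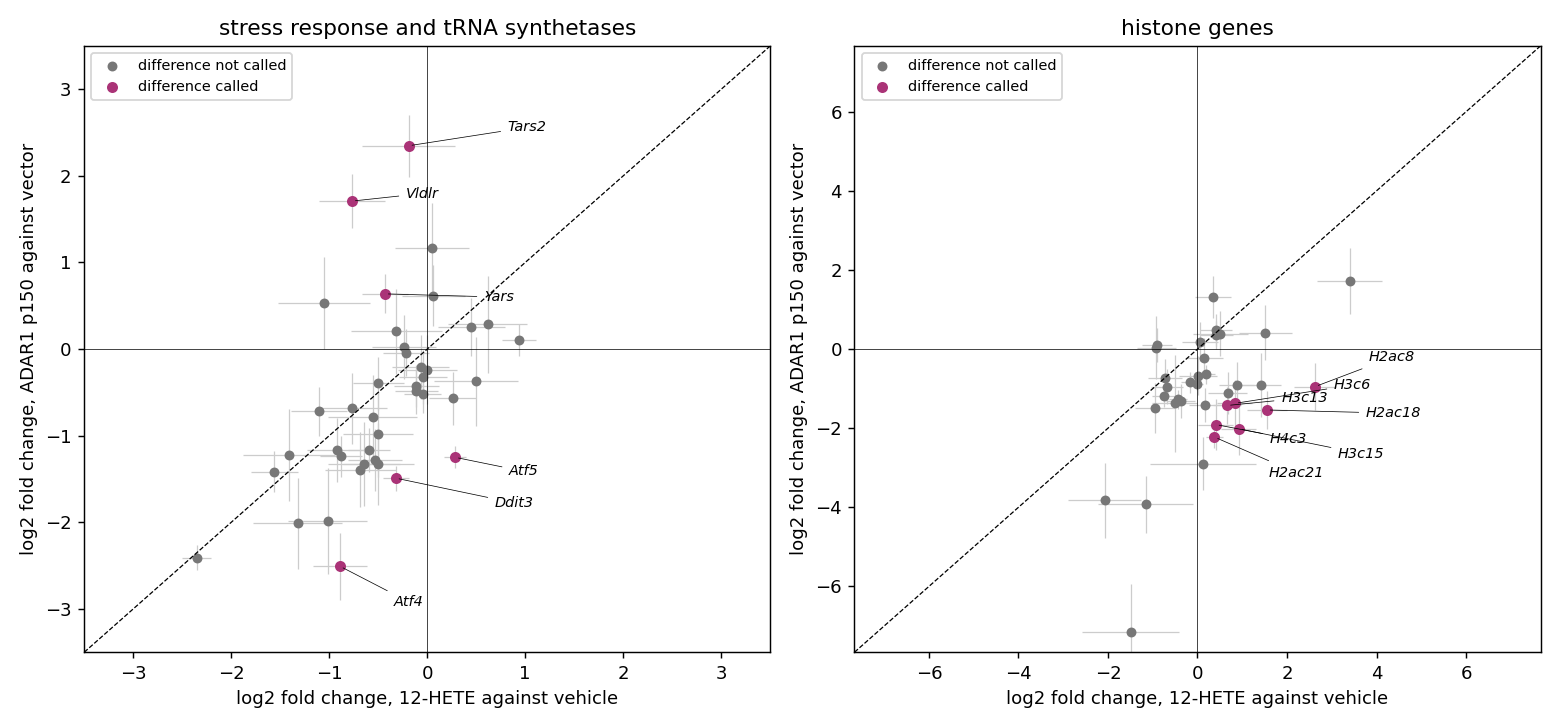
Log2 fold change with ADAR1 p150 against vector (vertical) and with 12-HETE against vehicle (horizontal) for the 24 stress-response and 20 of the synthetase genes, 4 of them in both lists (left) and the 36 histone genes (right); bars are standard errors, the dashed line marks equal effects, and purple points are genes whose difference was called. The purple histone points lie below the line, H2ac21 at -2.22 and 0.38, and Tars2, Vldlr and Yars lie above it on the left.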

How the data were processed

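RNA-seq libraries of EO771 cells were measured as counts of reads per gene, which the authors deposited as 1 table of raw counts for 49997 genes and 8 libraries. According to the methods, the authors checked reads with FastQC, removed duplicates with prinseq, aligned to GRCm38 with STAR and counted with featureCounts. The strand setting is not given in the sources used here. The labels name a column kit for RNA and a SMARTER library kit, whereas the methods name Trizol and a directional kit. Removing duplicates before counting caps the counts of abundant short genes.

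Genes that averaged 10 counts or more were kept (6901). TMM factors and edgeR's quasi-likelihood test (edgeR 4.0.16, limma 3.58.1, R 4.3.3) were fitted to all 8 libraries with 1 coefficient per group and no replicate block, with Benjamini-Hochberg adjustment over all 6901 genes. A gene was called at an adjusted p under 0.05 and at least a 2-fold change. The SE is the size of the log2 fold change divided by the square root of the F statistic. Counts of genes rest on totals of 1101767 to 1537037 per library, where 3 counts is taken as the floor, and the mean chi-square per gene between replicates was 1.39 (vector) and 1.71 (ADAR1 p150), above the 1 that sampling noise gives, so no library was taken for a copy of another. The steps were tested on simulated data.

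Gene positions, strands (known for 95.4% of tested genes) and promoters came from RefSeq GRCm38.p6. The first listed promoter was used, and 5173 tested genes had one. The members and the gene lists were chosen with earlier results of these data known, and some lists were edited after the names in the table were seen. Genes were named by a rule: Adar, the 10 highest and 10 lowest called genes that averaged 50 counts or more and had groups that did not overlap, and from each list with a called member up to 4 called genes that averaged 20 counts or more and the 2 most abundant genes. The editing and double-stranded RNA lists could be named in full, and neighbours could be named. A few genes of the lists are not reported here by name but stand in the counts of list members. Alternatives were DESeq2 1.42.0, RLE factors, other count minimums, the 4 libraries alone, a replicate block, no fold limit, no dominant genes, thinned libraries, and each library left out.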

Additional observations from a re-analysis of the deposited data

Results flagged for a closer look

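Each result here stands out because the effect of ADAR1 p150 (over vector) differed from that of 12-HETE (over vehicle) by edgeR's test of the difference, at an adjusted p under 0.05 and at least 2-fold. This held for 575 genes, among them 43 of the genes named in the text or by the naming rule, 31 with a higher and 12 with a lower effect of ADAR1 p150. The values below are differences on the log2 scale. No explanation of them was tested.

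Besides Adar (4.49), the higher effects were those of Acap1 (4.68) and its neighbour 2810408A11Rik (4.53), and of the growth factor gene Fgf1 (3.33). In matrix, secretion and lysosome, they were Matn2 (1.91), Ecm1 (1.91), Timp3 (2.01), St3gal1 (2.01), Pdgfa (1.13) and Lamp1 (1.57). In stress and translation, they were Vldlr (2.48), Tars2 (2.54), Yars (1.07), Keap1 (1.92) and Nol3 (2.56). In transcription and chromatin, they were Taf9b (2.23), Med14 (1.41), Med20 (1.92), Ino80b (2.02) and Ruvbl2 (1.16). Fancc (2.02), Slc10a1 (2.35), Trim17 (1.95), Trim11 (1.14), Ampd3 (1.58), Ankrd29 (2.63), Gm9968 (1.86), Sorbs2os (1.29) and Nr6a1os (1.45) completed those where ADAR1 p150 raised the estimate. D930030F02Rik (2.21) and LOC115490439 (2.13) fell with both treatments and by more with 12-HETE.

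The lower effects were those of the histones H2ac18 (-3.08), H3c15 (-2.94), H2ac21 (-2.60) and H3c13 (-2.09), and of the stress-response factors Atf4 (-1.62), Atf5 (-1.53) and Ddit3 (-1.17). The others were Aup1 (-2.07), Usp24 (-1.60), Aurka (-1.21), TrnP (-1.09) and Trim7 (-1.02). For Usp24, the estimate was -0.60 with ADAR1 p150 and 1.01 with 12-HETE.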

How the results depend on the processing

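Against 560 genes higher and 324 lower, DESeq2 gave 250 and 191, a minimum of 10 counts in every library 297 and 132 of 4592 genes, and the adjusted p without the 2-fold limit 1001 and 765. For the 575 genes whose effect differed from that of 12-HETE, DESeq2 gave 254 and the adjusted p alone 1033. RLE factors gave 493 higher and 370 lower, a fit without the genes over 1% of all counts 496 and 363, and no minimum count 591 and 474, so the share of lower calls grew under these settings. The median over all genes was between 0.00 and 0.10. Leaving out 1 library gave 453 to 499 genes higher, 256 to 312 lower, 503 to 544 differences and a log2 fold change of Adar between 4.04 and 5.92. H2bc9 turned to 1.80 (edgeR adjusted p = 0.53) without the first vector library and was -4.83 without the second. Of the other named genes, 37 lost their call when 1 library was left out, and 32 named genes, H2bc9 among them, under another alternative. The cause was not tested. Adar could not be fitted with 10 counts in every library, since its vector counts are lower.

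The labels do not say what a replicate number stands for, and the same-numbered vector and ADAR1 p150 libraries had a correlation of deviations of -0.114 (vehicle and 12-HETE -0.0798), so the numbers were not treated as pairs. With the replicate block, 514 genes were higher, 299 lower and 506 differed from 12-HETE. Crossing the pairing, chosen after seeing the data, gave 583, 338 and 633. At these totals, genes with few counts limit what can be detected, and near-identical histone copies and opposite-strand partners limit what a count belongs to.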

Other observations

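Among the epithelial markers, Elf3, an epithelial transcription factor, rose from 13 and 15 counts with vector to 51 and 38 with ADAR1 p150 (log2 fold change 1.37 ± 0.32, edgeR adjusted p = 0.0012), and it overlaps no gene on the other strand. The keratins Krt8 and Krt18, whose proteins pair in the same filaments, had estimates of opposite sign. Krt8 had 51 and 59 counts against 124 and 79 (0.59 ± 0.20, adjusted p = 0.031), and Krt18 had 79 and 104 against 80 and 42 (-0.88 ± 0.21, adjusted p = 0.002). Both stayed under 2-fold, and no difference between them was tested. Of 25 tested homeobox, Sox, Fox, Gata and Klf factors, 4 rose and 2 fell. Tbx3, a T-box factor of mammary development, rose from 20 and 23 counts to 61 and 57 (1.16 ± 0.25, adjusted p = 0.0006), whereas Sox4 had 72 and 61 against 80 and 88 and was not called.

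In the Hippo, Wnt, Notch and TGF-beta pathways, 2 of 41 tested genes rose and 1 fell. Axin2, a feedback target of Wnt signalling, had 21 and 30 counts in the vector and 78 and 63 in the ADAR1 p150 libraries (1.17 ± 0.24, adjusted p = 0.0004), and its call was lost without the first vector library. Tgif1, a repressor of TGF-beta targets, had 38 and 45 counts against 23 and 22 (-1.17 ± 0.29, adjusted p = 0.0021). Hspb8, a small heat shock protein that acts with autophagy receptors, fell from 76 and 99 counts to 45 and 43 (-1.28 ± 0.22, adjusted p = 2.1e-05). Kif1a, an axonal motor kinesin, rose from 11 and 8 counts to 43 and 39 (1.80 ± 0.35, adjusted p = 0.00017). Ift22, a transport protein of cilia, had 15 and 21 counts against 0 and 0 (adjusted p = 6.3e-07). It was chosen after its values were seen, and a count of 0 allows up to 3 counts per library.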
